A study of Arabidopsis thaliana with 7 samples.

Results

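The comparison described here set wild-type (WT) Arabidopsis thaliana seedlings of the accession Ler-0 kept on medium with 80 mg/L quantum dots of cadmium sulfide (CdS QDs) against WT seedlings kept on 40 mg/L. CdS QDs are nanometre-sized crystals of a cadmium salt, and the labels give the higher dose as the minimum inhibitory concentration for WT and the lower dose as a fraction of it. The comparison rests on 2 of the 7 ATH1 arrays of the study, 1 array at each dose. Of 13355 genes that could be named, 1872 reached log2 6 on the brighter of the 2 arrays, and these are the genes counted below. The value of a gene at 80 mg/L minus its value at 40 mg/L is called its difference, with 1 on this log2 scale read as 2-fold. With 1 array a group there was no replicate check, no error estimate and no test, so every difference below is a difference between these 2 arrays, whose number limits the precision of each value.

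The study measured WT, atnp01 and atnp02 seedlings, all in the Ler-0 background, and asked how the lines differ in their response to CdS QDs. The groups were WT at 0, 40 and 80 mg/L, atnp01 at 80 and 0 mg/L and atnp02 at 80 and 0 mg/L. The labels describe atnp01 and atnp02 as mutants that tolerate or resist CdS QDs, and the sources used here do not name the genes affected in them. All plants spent 14 days on Murashige and Skoog medium and a further 21 days on the medium of their group, at 24 °C and a photoperiod of 16 h, and each sample was 0.1 g of plant material. The sources used here give neither the number of plants in a sample nor the hour of harvest.

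Plants short of iron raise a set of genes that includes short signalling peptides and transcription factors of the basic helix-loop-helix family, which act ahead of iron uptake at the root surface. Cold, drought and salt raise genes for hydrophilic proteins such as the COR15 proteins of the chloroplast stroma and the dehydrins, and several of these genes also follow the day through the circadian clock. Glucosinolates are sulfur-rich defence compounds of the cabbage family, built from amino acids such as methionine, and their synthesis is known to be lowered when sulfur is short. Cadmium is known to compete with iron, zinc and copper for carriers and binding sites, and its detoxification draws on glutathione and phytochelatins, which contain sulfur.

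The arrays at 80 and 40 mg/L were close to each other for most genes. The median difference over the 1872 genes was -0.001, the quartiles were -0.16 and 0.16, and 1673 genes (89.4%) lay within 0.5 either way. A difference of 1 or more was found for 37 genes, 1.98% of those counted, and a difference of -1 or less for 9 genes, 0.481%. The highest-ranking differences belonged to genes of iron deficiency and cold response, and the most negative ones to a gene of glucosinolate side-chain modification and a glutathione transferase. Differences of 2 or more were found for 7 of the 37 genes, and none of the 9 reached -2. Array medians lay between 3.39 and 3.48 over all 7 arrays, and the Pearson correlation between the 2 arrays was 0.991 across probe sets, which are not independent replicates. Spike-in controls differed little on average, with a mean difference of -0.06 for 27 poly-A probe sets and 0.03 for 18 hybridization probe sets. Single poly-A probe sets lay between -0.53 and 0.75, and single hybridization probe sets between -0.21 and 0.21. The gap between 3′ and 5′ probe sets, a sign of RNA quality, was 1.91 at 80 mg/L and 1.88 at 40 mg/L for actin, and 0.26 and 0.24 for GAPDH. The leaf gene RCA, the activase of rubisco, was bright on both arrays, at 11.46 and 11.57, and so was the root gene PYK10, a beta-glucosidase of endoplasmic reticulum bodies, at 10.23 and 10.63. RCA was the only annotated leaf marker of 10 listed. PYK10 was the only one of 6 annotated root markers to reach the floor, so the view of each organ rests on 1 gene. RNA came from whole seedlings, in which fewer cells of a type and less RNA per cell cannot be told apart.

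**Figure D1:**
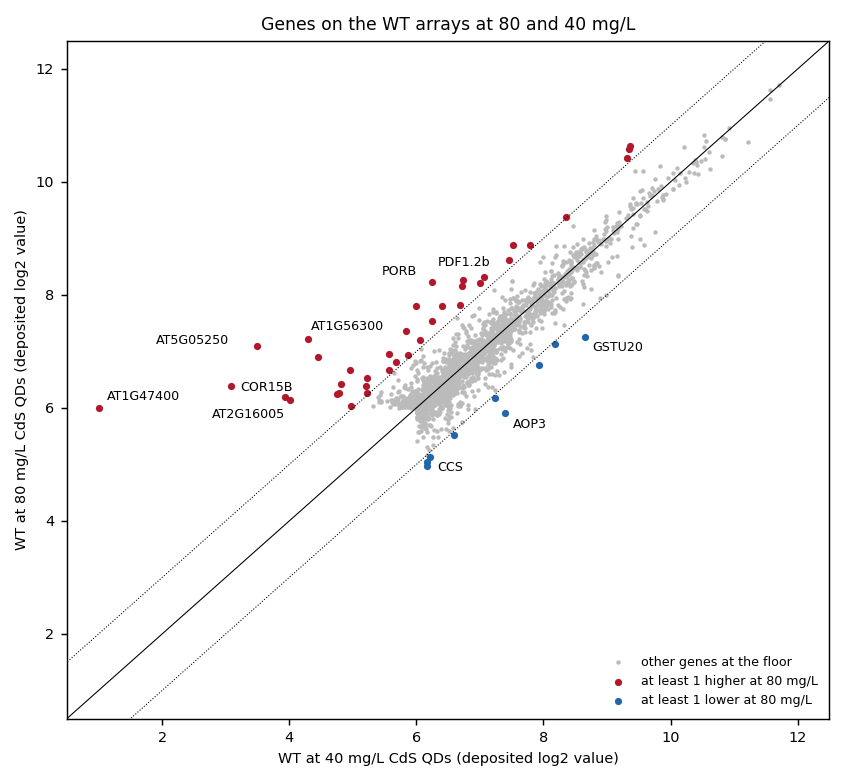
Deposited log2 value of each of the 1872 genes at 80 mg/L (vertical axis) against that at 40 mg/L (horizontal axis), 1 array each. The dotted lines mark differences of 1 and -1, with 37 genes on or above the upper line (red) and 9 on or below the lower one (blue). The red points reach far lower values at 40 mg/L than the blue points reach at 80 mg/L.

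Genes of iron deficiency were higher at 80 mg/L. All 3 members that reached the floor were at least 2-fold higher, with a median of 3.61 beside -0.001 for all genes counted. AT1G47400 and AT5G05250 reached the floor only on the 80 mg/L array, so the floor itself favoured high members. Over all 6 annotated members, without a floor, the median was 2.33. AT1G47400, which encodes a short peptide of iron-deficiency signalling, was near the bottom of the scale without QDs and at 40 mg/L and was well expressed at 80 mg/L. Its values were 1.07, 1.01 and 6.01 at 0, 40 and 80 mg/L, and because the lower values lie near background its difference has no exact size. The mutants gave like values for the peptide gene, with 5.07 at 80 mg/L and 1.1 at 0 mg/L in atnp01, and 6.06 and 0.99 in atnp02. AT5G05250, a gene of unknown function that responds to iron deficiency, was already higher at 40 mg/L and higher again at 80 mg/L, with values of 1.95, 3.50 and 7.10 and a difference of 3.61. AT3G56360, also on the iron list, followed the same order at 4.97, 6.995 and 8.22, but most of its distance lay between 0 and 40 mg/L, and its difference between 80 and 40 mg/L was 1.22. The list held 27 loci, of which 6 were on the annotation used here. The other 3 did not reach the floor: BHLH101, one of the transcription factors that switch on iron uptake, stood at 0.78, 1.17 and 4.61 at 0, 40 and 80 mg/L, whereas PYE, a regulator of iron distribution, differed by 0.43 and AT3G07720 by -0.05. In the mutants AT5G05250 and AT3G56360 were higher at 80 than at 0 mg/L by 4.46 and 2.61 in atnp01 and by 4.54 and 2.98 in atnp02.

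Of the cold-response genes, COR15B and LTI30 were at least 2-fold higher at 80 mg/L, 2 of the 3 that reached the floor, with a median of 1.15 over those 3. COR15B reached the floor only on the 80 mg/L array. Of 21 loci on the list, 6 were annotated, and all 6 had a difference above 0, as did 46.5% of all 13355 named genes taken without a floor. COR15B, a protein of the chloroplast stroma that protects membranes from freezing, was at 3.44, 3.08 and 6.39 at 0, 40 and 80 mg/L, a difference of 3.30. It was also high in both exposed mutants, at 5.78 against 3.50 without QDs in atnp01 and at 6.04 against 3.21 in atnp02. The related COR15A, its neighbour on chromosome 2, stayed under the floor but took the same shape, at 1.53, 1.46 and 4.19. LTI30, a dehydrin, was at 6.69, 6.06 and 7.20, so that its difference of 1.15 came partly from a low value at 40 mg/L, and the exposed mutants were close to their own arrays without QDs, by 0.17 in atnp01 and 0.50 in atnp02. COR47, another dehydrin, differed by only 0.41. Outside the list, AT1G54410 and AT4G30660 were picked from the genes already counted as higher, so they add no separate reading. The dehydrin gene AT1G54410 was at 9.52, 9.32 and 10.43. AT4G30660, of a family of small membrane proteins that respond to low temperature and salt, was at 6.64, 5.99 and 7.80. Over the 3 cold genes at the floor the median was -0.36 for 40 against 0 mg/L, a pair that shares the 40 mg/L array with the difference above.

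On the list of genes that follow the circadian clock or peak late in the day, 4 of 21 loci were annotated, 2 reached the floor and 1 of these, AT1G56300, was at least 2-fold higher at 80 mg/L. Those 2, AT1G56300 and GI, reached the floor only on the 80 mg/L array. AT1G56300, which encodes a DnaJ-domain protein, was at 3.94, 4.29 and 7.22 at 0, 40 and 80 mg/L, a difference of 2.93, and reached 7.38 at 80 mg/L against 4.49 at 0 mg/L in atnp01 and 7.32 against 3.61 in atnp02. GI, the clock protein GIGANTEA, was at 5.57, 5.91 and 6.70, a difference of 0.80. The other 2, COR27 and AT4G33980, are also on the cold list. They were dim and are given by level only, at 1.94 at 80 mg/L against 0.94 at 40 mg/L for COR27, both near background, and 3.58 against 1.35 for AT4G33980. The arrays' hour of harvest is not given, and its part in these differences was not tested.

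Beyond AT1G47400, COR15B and AT1G56300, the array at 40 mg/L was within 0.5 of the array without QDs for 16 more of the 37 higher genes. With those 3, this made 19 genes, beside 76.3% of all counted genes that lay within 0.5 between 40 and 0 mg/L. Of the 19, 13 were also at least 1 higher at 80 than at 0 mg/L, a share not counted over all genes. The other 6, BGLU44, AT5G24490, WLIM2a, AT1G54410, AT1G13930 and AT4G32340, were under 1 there, with values from 0.71 for BGLU44 to 0.9965 for AT4G32340, because their 40 mg/L value lay somewhat below that without QDs. AT4G16146 was at 4.35, 4.45 and 6.91, and AT2G21130, a cyclophilin, at 4.84, 4.82 and 6.43. PWD, the phosphoglucan water dikinase that opens starch granules for breakdown, was at 5.23, 4.95 and 6.66. For these 3 genes both values below 80 mg/L lay close together, and the exposed mutants were higher than their own arrays without QDs by 2.04, 1.12 and 1.27 in atnp01 and by 2.88, 1.24 and 1.59 in atnp02. MAP1C, a methionine aminopeptidase of the chloroplast, was at 5.17, 4.78 and 6.27, and CHL, the lipocalin of the chloroplast that protects thylakoid lipids, at 5.66, 5.57 and 6.96. THIC, which makes the pyrimidine part of thiamine in the chloroplast, was at 6.37, 6.24 and 7.54. LCR69, a plant defensin, was at 7.61, 7.53 and 8.88. Among the brightest of the group were AT3G62550, of the universal stress protein family, at 9.42, 9.37 and 10.64, and AT1G13930 at 9.61, 9.34 and 10.59. The remaining 7 were AT4G32340, AT1G21680, BGLU44, AT5G35735, WLIM2a, AT5G24490 and the dehydrin gene AT1G54410 given above, with differences from 1.03 for AT5G24490 to 1.45 for AT4G32340.

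**Figure D2:**
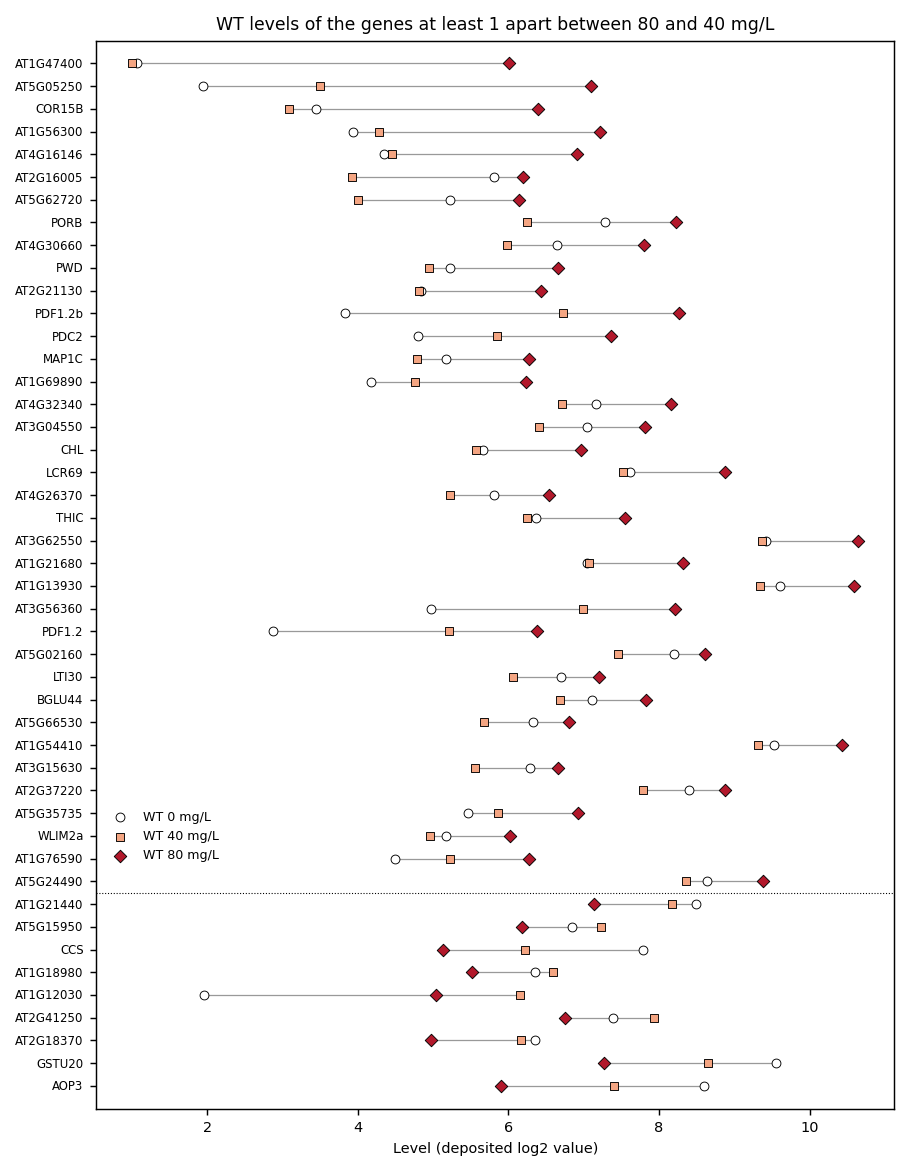
Deposited log2 level at 0 mg/L (open circles), 40 mg/L (squares) and 80 mg/L (diamonds) in WT for the 37 genes at least 1 higher (above the dotted line) and the 9 at least 1 lower (below it) at 80 than at 40 mg/L, ordered by difference, 1 array a dose. The open circle lies within 0.5 of the square for 19 of the 37 genes, left of it by at least 0.5 for 7, and right of it by at least 0.5 for 11.

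A further 7 of the 37 genes were at least 0.5 higher at 40 mg/L than without QDs and higher still at 80 mg/L, against 16% of all counted genes that were at least 0.5 higher at 40 mg/L. PDF1.2b and PDF1.2, defensins that mark jasmonate and ethylene signalling, were at 3.83, 6.73 and 8.26 and at 2.87, 5.21 and 6.38. Their step from 40 to 80 mg/L, 1.53 and 1.17, was smaller than the step from 0 to 40 mg/L, 2.90 and 2.34. PDF1.2b was read on a probe set of the _x_at type, whose probes may match related sequences, so the pair may not be separate readings. THI2.1, a thionin of the same list, did not reach the floor and differed by 0.46, and LCR67 by -0.47. PDC2, a pyruvate decarboxylase of fermentation, was at 4.81, 5.84 and 7.36, and AT1G69890 at 4.18, 4.76 and 6.24. AT1G76590, of the PLATZ family of zinc-binding proteins, was at 4.50, 5.22 and 6.27. With AT5G05250 and AT3G56360 above, these 7 genes were all at least 2-fold higher at 80 than at 0 mg/L in both atnp01 and atnp02.

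In the last 11 of the 37 genes the array at 40 mg/L lay at least 0.5 below the array without QDs, as it did for 7.69% of all counted genes. The difference between 80 and 40 mg/L was then in part a return towards the level without QDs. PORB, a light-requiring enzyme that makes chlorophyllide, was at 7.28, 6.24 and 8.22 at 0, 40 and 80 mg/L, a difference of 1.98. The 40 mg/L value was the lowest of all 7 arrays, and the mutants had 8.10 at 80 mg/L against 7.64 at 0 mg/L in atnp01 and 8.23 against 7.31 in atnp02. AT2G16005, of a lipid-recognition domain family, was at 5.81, 3.92 and 6.20, and AT5G62720 at 5.22, 4.01 and 6.14. For AT2G16005 the exposed mutants stayed close to their own arrays without QDs, at 5.65 against 5.26 in atnp01 and at 6.94 against 6.88 in atnp02. AT3G04550, a chaperone of rubisco assembly, was at 7.04, 6.41 and 7.81, and AT2G37220, an RNA-binding protein of the chloroplast, at 8.40, 7.79 and 8.88. AT4G26370, AT5G02160, AT5G66530 and AT3G15630 had the same shape, as did AT4G30660 and LTI30 above. Of the 37 higher genes, 5 were within 0.5 between 80 and 0 mg/L, a share not counted over all genes. The 40 mg/L array held the lowest of the 7 values for 22 of the 37, against 16.9% of all counted genes. A gene low on that array is more readily counted as higher at 80 mg/L, and with 1 array at 40 mg/L the dose and the single sample cannot be told apart.

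PORB stood alone among the genes of chlorophyll synthesis. Of 19 listed genes 5 were annotated and 4 reached the floor, with a median of 0.25. CHLM, a methyltransferase of the magnesium branch, differed by 0.29, HEMB1, of the early steps, by 0.20, and AT1G74470, which reduces the phytol precursor, by -0.04. The 11 annotated nuclear genes of photosynthesis, of 57 listed, all reached the floor and lay between -0.36 for PSAN, a photosystem I subunit, and 0.11 for ATPC1, a subunit of the chloroplast ATP synthase, with a median of -0.08. Of 69 plastid-encoded genes, 48 reached the floor and none was 2-fold apart, with a median of 0.10 and a range from -0.50 for psbM to 0.68 for psbD, both of photosystem II. Among the 21 plastid genes under the floor, 3 were at -1 or less, beside 0.442% of all named genes without a floor. These were atpI, of the ATP synthase, at 3.53 at 80 mg/L against 4.81 at 40 mg/L, psaC, of photosystem I, at 2.10 against 3.18, and petD, of the cytochrome b6f complex, at 1.66 against 2.81. The genes psaC and petD were near background at 80 mg/L and also without QDs, at 2.10 and 1.61, so their differences have no exact size. Beside the median of 0.10 stood a plastid median of 0.50 for 40 against 0 mg/L, which shares the 40 mg/L array, and medians of 1.06 in atnp01 and 0.83 in atnp02 for 80 against 0 mg/L.

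Of the 6 glucosinolate genes at the floor, 1, AOP3, was at least 2-fold lower at 80 mg/L. The 6 had a median of -0.54 beside -0.001 for all genes counted. All 7 annotated members of 42 listed had a difference below 0, as did 46.8% of all 13355 named genes taken without a floor. AOP3, a dioxygenase that modifies the side chain of glucosinolates made from methionine, had the most negative difference of the 1872 genes, -1.497. It was at 8.60, 7.40 and 5.90 at 0, 40 and 80 mg/L, lower at each dose, and at 5.84 against 8.21 without QDs in atnp01 and 6.86 against 8.32 in atnp02. BCAT4, the aminotransferase that starts the lengthening of methionine, was at 9.79, 8.99 and 8.0, and its difference of -0.99 fell just short of the threshold. AT2G31790, a glucosyltransferase that acts on glucosinolate precursors, differed by -0.63 and UGT74B1, another, by -0.41. The transporters GTR2 and GTR1, which load glucosinolates into the phloem, differed by -0.45 and -0.26, but unlike AOP3 and BCAT4 they were higher at 40 mg/L than without QDs, at 7.17 against 5.80 for GTR2 and 6.59 against 5.70 for GTR1.

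GSTU20, a glutathione transferase, had the second most negative difference, -1.39, with 9.55, 8.65 and 7.26 at 0, 40 and 80 mg/L. It was at 7.51 at 80 mg/L against 9.26 at 0 mg/L in atnp01 and at 8.27 against 9.29 in atnp02. The other glutathione transferases at the floor differed by -0.67 for GSTU27, -0.12 for GSTU16 and -0.02 for GSTU18, and the 4 had a median of -0.40 (36 listed, 11 annotated). CCS, the chaperone that delivers copper to superoxide dismutase, was at 7.79, 6.22 and 5.14, a difference of -1.08. The larger step in CCS lay between 0 and 40 mg/L, at -1.57, and the exposed mutants reached similar values of 5.37 in atnp01 and 5.10 in atnp02, against 7.99 and 8.02 without QDs. AOP3, GSTU20 and CCS were the 3 of the 9 lower genes that were also at least 0.5 lower at 40 than at 0 mg/L.

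Of the other lower genes, 4 were within 0.5 between 40 and 0 mg/L. Among these 4, AT2G18370 and AT1G21440 were also at least 1 lower at 80 than at 0 mg/L. The share of all counted genes at least 1 lower there was not counted. AT2G18370, of the lipid transfer protein family, was at 6.36, 6.17 and 4.98, and AT1G18980, a germin-like protein, at 6.36, 6.60 and 5.51. AT1G21440, of the phosphoenolpyruvate carboxylase family, was at 8.49, 8.18 and 7.14, and AT5G15950, an S-adenosylmethionine decarboxylase of polyamine synthesis, at 6.84, 7.24 and 6.18. All 4 were also lower at 80 than at 0 mg/L in the mutants, by more than 1 in atnp01 for AT2G18370 (-1.13), AT1G21440 (-1.18) and AT1G18980 (-1.05), and in atnp02 for AT2G18370 (-1.85). The last 2 of the 9 were at least 0.5 higher at 40 mg/L than without QDs. AT1G12030 was at 1.96, 6.16 and 5.04, far above the array without QDs at both doses, and AT2G41250 at 7.38, 7.93 and 6.75. AT1G12030, AT2G41250 and AT5G15950 had their highest value of the 7 arrays at 40 mg/L, as did 19.4% of all counted genes.

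Genes of sulfur limitation and assimilation were not higher at 80 mg/L. All 5 annotated genes of the 19 listed had a difference below 0, as did 46.8% of all named genes without a floor. The 3 at the floor had a median of -0.57. BGLU28, a glucosidase that marks sulfur limitation, was at 1.62, 8.89 and 7.95 at 0, 40 and 80 mg/L, a difference of -0.94 between 80 and 40 mg/L. Its neighbour on chromosome 2, BGLU15, lay just outside the threshold at 4.28, 6.17 and 5.17. AT1G04770, another gene raised by sulfur shortage, differed by -0.28 and SIR, the sulfite reductase, by -0.57. MSRB5, the only one of 4 annotated methionine sulfoxide reductases at the floor, had a like order at 6.77, 9.17 and 8.34, a difference of -0.83. The others did not share this rise and partial return. MSRB6 was at 6.47, 3.02 and 3.57 at 0, 40 and 80 mg/L, MSRB9 at 5.93, 5.69 and 4.49, and MSRB3 differed by -0.10. For BGLU28, BGLU15 and MSRB5 the WT value at 80 mg/L lay below that at 40 mg/L and above that at 0 mg/L. The same 3 genes in the exposed mutants were at 8.56, 5.79 and 8.68 in atnp01 and 8.19, 5.75 and 8.70 in atnp02.

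Among the lists of peroxidases, sugar transport, oxygen scavenging, metal chelation and transport, and cell wall loosening, no gene at the floor was 2-fold apart. The 6 class III peroxidases at the floor had a median of -0.08 and lay between -0.43 and 0.05, beside a median of 1.83 for 40 against 0 mg/L. Of all 19 annotated peroxidases, 15 were below 0, beside 46.8% of all named genes without a floor. At -1 or less were 4, all under the floor, beside 0.442% of all named genes without a floor. These 4 were AT4G30170 at -2.13, AT5G64100 at -1.95, AT5G17820 at -1.51, and AT4G26010, near background, at 1.96 at 80 mg/L against 3.03 at 40 mg/L. AT1G49570, at 1.06, also under the floor, lay at least 2-fold the other way, as did 0.651% of all named genes without a floor. The 5 genes of sugar transport and starch turnover had a median of -0.30 beside 2.59 for 40 against 0 mg/L, led by AT3G05400, a sugar transporter, at 4.14, 7.78 and 7.13. The 3 genes of reactive oxygen scavenging had a median of -0.26, with SAPX, the stromal ascorbate peroxidase, at -0.70 and AT3G11630, a peroxiredoxin of the chloroplast, at 0.35. On the list of metal chelation and transport only 3 of 24 loci were annotated, with a median of -0.21. They were MT1C, a metallothionein, at -0.21, and the glutathione reductases GR1 and GR at -0.50 and 0.02. No metal transporter was among them, so this list gives no view of metal transport. The 3 expansin and xyloglucan endotransglucosylase genes had a median of 0.05 and lay between -0.68 and 0.12. Reference genes differed by 0.11 for PEX4 and -0.03 for GAPC2. The lists of salicylate defence, phosphate starvation, aquaporins and flower markers had no annotated member, and each list above is represented by few of its genes.

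The only root marker at the floor, PYK10, differed by -0.39. Of 10 listed, 6 were annotated and all 6 had a difference below 0, as did 46.8% of all named genes without a floor. The median of the 6 was -0.73. The 2 at -1 or less, beside 0.442% of all named genes without a floor, were AT4G30170 and AT4G26010. Both were under the floor and are also among the peroxidases above. The log2 of their summed level was 10.56, 10.70 and 10.27 at 0, 40 and 80 mg/L, a sum that PYK10 dominated, and in the mutants it was 10.39 at 80 mg/L against 10.73 at 0 mg/L in atnp01 and 10.53 against 10.82 in atnp02. The root peroxidase AT4G30170 had the most negative value of the markers, with 5.70, 5.85 and 3.72 at 0, 40 and 80 mg/L. Of the 3 annotated seed genes the summed level was 3.74 at 80 mg/L and 3.16 at 40 mg/L, so they were dim on both arrays. Since 1 root marker and 0 seed genes reached the floor, the 46 genes 2-fold apart could hold hardly any of either list. The part of a changed share of root in their differences was not tested.

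**Figure D3:**
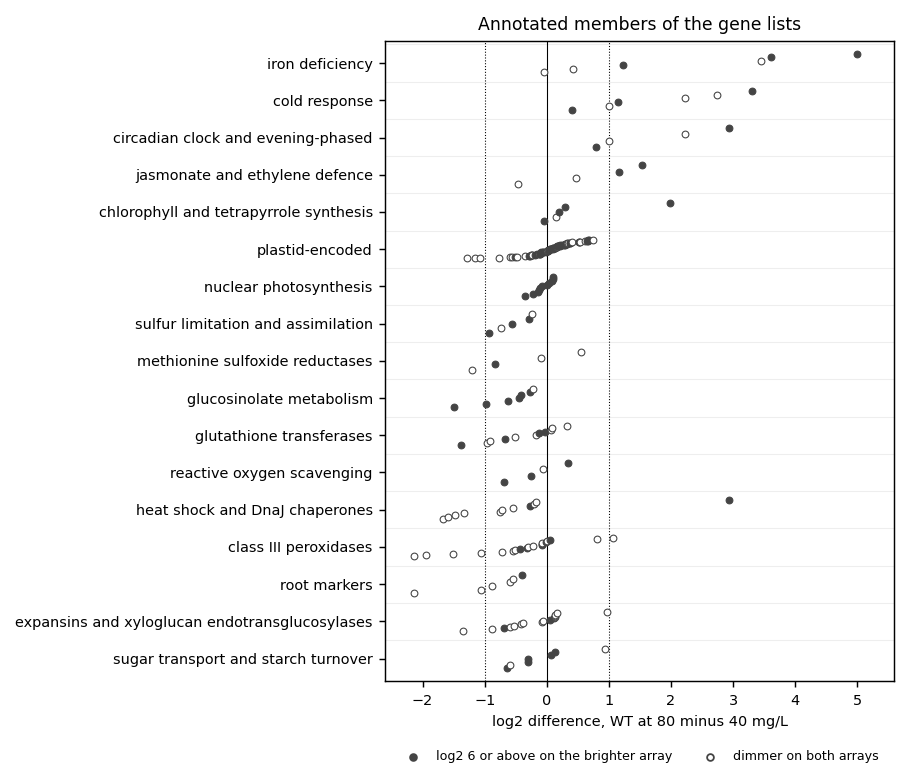
Difference between 80 and 40 mg/L in WT (horizontal axis, log2) of each annotated member of the gene lists (rows). Filled points reached log2 6 on the brighter array, open points did not, and the dotted lines mark -1 and 1. The iron and cold lists lie mostly right of 0, the glucosinolate and sulfur lists lie left of it, and the nuclear photosynthesis genes stay close to 0.

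The exposed mutants gave 4 arrays that are not in the WT difference, although they set 80 against 0 mg/L and were processed with the WT arrays. Most of the 37 higher genes, such as PWD and PDC2, reached the floor only on the WT array at 80 mg/L. The floor thus favoured genes high there, and the shares of all counted genes below make no allowance for this. Of the 37 genes higher at 80 than at 40 mg/L in WT, 17 were at least 2-fold higher at 80 than at 0 mg/L in atnp01, beside 7.37% of all counted genes, and 20 in atnp02, beside 7.75%. The same 17 genes passed in both mutants, beside 6.25% of all counted genes. The sign was positive for 35 of the 37 in each mutant, but the share of all counted genes with a positive sign was not counted. Their median was 0.86 in atnp01 and 1.15 in atnp02, beside 0.00 for all counted genes in each. Of the 19 genes within 0.5 between 40 and 0 mg/L, 10 passed in atnp01 and 12 in atnp02. All 7 that were already higher at 40 mg/L passed in each mutant. Of the 11 that were low at 40 mg/L, 0 passed in atnp01 and 1, AT4G30660, in atnp02. These 3 groups already differed in WT, where 13 of the 19, all 7 and 1 of the 11 were at least 1 higher at 80 than at 0 mg/L. The share of all counted genes with the same pattern at 40 mg/L that passed in the mutants was not counted. The share at least 1 higher at 80 than at 0 mg/L in WT was not counted either. The mutant differences of these 11 genes lay between -0.09 for AT5G02160 and 0.77 for AT4G30660 in atnp01, and between -0.40 for AT3G15630 and 1.37 for AT4G30660 in atnp02.

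Of the 9 lower genes, 6 were at least 2-fold lower at 80 than at 0 mg/L in atnp01, beside 2.46% of all counted genes, and 4 in atnp02, beside 2.24%. The 4 genes that passed in both, beside 1.6% of all counted genes, were AOP3, GSTU20, CCS and AT2G18370. Most of the 9, AOP3 and CCS among them, reached the floor only on the WT array at 40 mg/L, for which these shares make no allowance. The sign was negative for 8 of the 9 in each mutant, with AT1G12030 as the exception, but the share of all counted genes with a negative sign was not counted. The medians of the 9 were -1.13 in atnp01 and -0.75 in atnp02, beside 0.00 for all counted genes in each. AOP3 and GSTU20 were higher in atnp02 than in atnp01 at 80 mg/L, at 6.86 against 5.84 for AOP3 and 8.27 against 7.51 for GSTU20. A difference of 1 or more either way between the mutants was found for 0.501% of genes at 80 mg/L and 0.11% at 0 mg/L. AOP3 reached this size at 80 mg/L and GSTU20 did not.

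**Figure D4:**
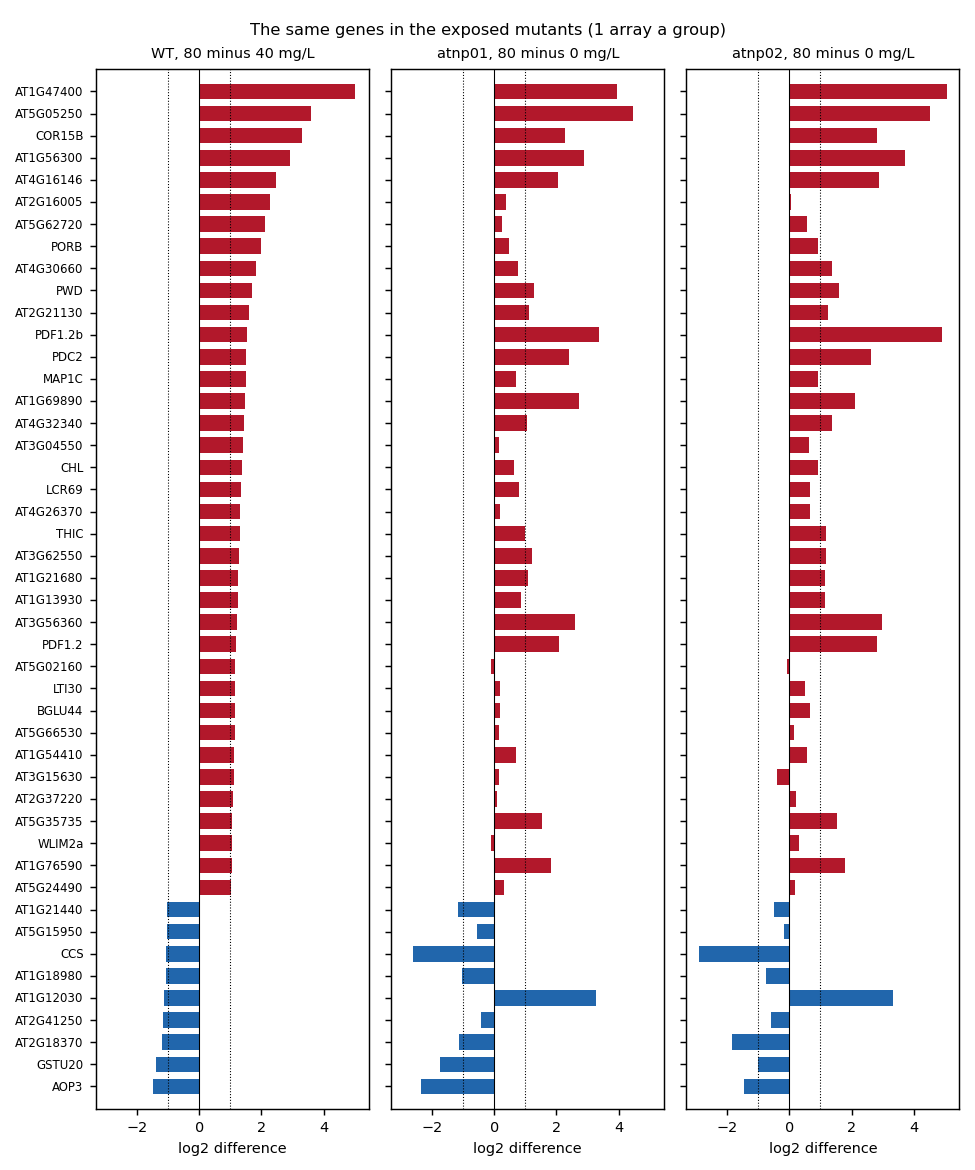
Difference in log2 of the 37 higher (red) and 9 lower (blue) genes between WT at 80 and 40 mg/L (left), atnp01 at 80 and 0 mg/L (middle) and atnp02 at 80 and 0 mg/L (right), 1 array a group. Dotted lines mark -1 and 1, and 17 red bars reach 1 in the middle panel and 20 in the right one. The bars of genes with values near background, such as AT1G47400, have no exact length.

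The values around the threshold were close together. The higher genes just inside it were WLIM2a, AT1G76590 and AT5G24490, at 1.06, 1.05 and 1.03, and those just outside were AT2G47390, TUB5 and AT1G73655, at 0.98, 0.97 and 0.95. The lower genes just inside were CCS, AT5G15950 and AT1G21440, at -1.08, -1.05 and -1.04, and those just outside were BGLU15, BCAT4 and PMEPCRF, at -0.9996, -0.985 and -0.955.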

How the data were processed

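The authors deposited log2 values, for which the submitters' processing notes name RMA and Affymetrix Expression Console 1.1. The sources used here do not give the background step, the probe-set definition or any later step. On the 80 and 40 mg/L arrays 5928 and 6055 values repeated another value of the same array, the first of each left out, so a step after RMA is possible, in which event a difference of 1 need not be exactly 2-fold. From the 22810 probe sets, 64 controls were left out. The platform annotation gave 13513 probe sets 1 gene and 503 several, while 8730 had no name here. The TAIR10.1 gene table supplied symbols for 13436 probe sets by gene identifier, and 77 kept their annotation name. For 147 genes with several probe sets the one with the highest mean over the 7 arrays was used. Locus codes stand for genes without a symbol, and their roles are background knowledge. Genes at log2 6 or above on the brighter array were counted at a difference of 1, with no p-value.

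The members, the 35 gene lists (684 loci outside the plastid, of which 152 were annotated and 68 reached the floor) and the rules were chosen with earlier results of these data known. Named were the genes 2-fold apart, those next to the threshold and up to 6 members a list, beside a few dim ones. Alternatives were other floors and thresholds, probe sets in place of genes, loess, quantile and median centring, and the mean of a gene's probe sets. Python 3.11.15, pandas 2.3.3, numpy 2.4.6 and statsmodels 0.14.6 were used, and the counting was tested on simulated data. No sequences are shown, and coordinates were not used.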

Additional observations from a re-analysis of the deposited data

How the results depend on the processing

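The counts of 37 higher and 9 lower genes depended on the floor and the threshold. At a floor of log2 5 there were 52 higher and 25 lower genes, at log2 7 there were 20 higher and 5 lower, and without a floor 87 and 59. At a difference of 1.5 there were 13 higher and 0 lower genes, and at 0.5 there were 112 and 87. Probe sets in place of genes gave 77 and 45, since unnamed probe sets were included. At a floor of log2 7, the cold list had a median of 0.78 and the glutathione transferases one of -1.03, with fewer members left. The iron-deficiency median of 3.61 was 2.41 at floors of log2 5 and 7 and 2.33 without a floor. The median of the expansins and xyloglucan endotransglucosylases, 0.05, was -0.39 at a floor of log2 5 and -0.07 without one. Asking for log2 4 on the dimmer array as well left 33 higher and 9 lower genes. Loess, median centring and the mean of a gene's probe sets kept all 37 and all 9. Quantile normalization kept 36 of the 37 and all 9 and added 1 lower gene. AT5G24490 then differed by 0.99 and BCAT4 by -1.02. Over 92 genes and 4 scalings, no gene 2-fold apart changed sign. Of the others, PSBY went to -0.0001 under loess and PRXR1 to 0.0408 under quantile normalization, against 0.0070 and -0.0179 as deposited. These scalings moved the median of all genes by at most 0.0038. No paired analysis was possible because each group had 1 array, and no array could be left out. Dim values limit the exact size of differences near background.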

Other observations

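Below the floor, 3412 genes had a brighter array between log2 4 and log2 6. Of these, 28 were at least 1 higher and 31 at least 1 lower at 80 than at 40 mg/L. The genes named here were chosen after their values were seen. Several higher ones were relatives or neighbours of genes above the floor. PDF2.1, a defensin, was at 1.99, 1.90 and 4.55 at 0, 40 and 80 mg/L, beside the defensin LCR69. AT4G30650, the neighbour of AT4G30660 on chromosome 4, was at 3.32, 2.87 and 5.43, a difference of 2.55. The lower ones included genes of roots and of stress proteins. The root peroxidase AT5G64100 was at 5.45, 5.62 and 3.68, and AT4G30170, another, at 5.70, 5.85 and 3.72. In the mutants AT5G64100 was at 4.08 at 80 mg/L against 5.84 at 0 mg/L in atnp01 and at 4.30 against 5.84 in atnp02. OCT1, of the organic cation transporter family, was at 6.19, 5.66 and 3.61.

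On the list of heat shock and DnaJ chaperones, 10 of 11 annotated genes had a difference below 0, as did 46.8% of all named genes without a floor. The exception was AT1G56300 at 2.93, which with AT3G09440 at -0.27 made up the 2 at the floor, with a median of 1.33. Under the floor 4 were at -1 or less, beside 0.442% of all named genes, and 2 of these, AT2G29500 and AT2G20560, were below log2 4 on both arrays. The small heat shock protein gene AT1G53540 was at 1.18, 4.62 and 2.95 at 0, 40 and 80 mg/L, and AT5G48570, an immunophilin, at 3.19, 4.72 and 3.38. Their highest values were thus at the lower dose. In the exposed mutants AT1G53540 was at 2.55 in atnp01 and 2.20 in atnp02, and AT5G48570 at 3.46 and 3.43. On the list of flavonoid and phenylpropanoid synthesis 3 of 19 loci were annotated, and none reached the floor. In WT all 3 were highest at 40 mg/L, with a median difference of -1.04. DFR, the dihydroflavonol reductase, was at 3.66, 5.74 and 4.70. The 3 were not alike in the mutants. For 80 minus 0 mg/L, DFR differed by 2.38 in atnp01 and 1.71 in atnp02, UF3GT by 1.07 and 0.22, and AT4G14090 by 0.95 and -0.22.

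DPE1, a starch-degrading transferase of the chloroplast, was under the floor and at 4.34, 5.001 and 5.95, a difference of 0.95, beside PWD of the same pathway. DPE1 had the highest difference of the 7 annotated members of the list of sugar transport and starch turnover. Of those 7, 4 were below 0, and the median was -0.30. AMY1 and APL3 of that list differed by 0.07 and -0.59.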
